A study of Homo sapiens with 14 samples.

Results

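The cells described here are those still dividing late in a culture of SW620 colonies, on days 12 and 15, when most cells of the colonies carried few cell cycle transcripts. A cell was kept when it held 200 to 4500 detected genes, 1000 to 20000 unique molecular identifiers (UMIs, each standing for 1 captured transcript) and at most 10% mitochondrial UMIs, and it was called dividing when at least 3 of the 6 genes MKI67, TOP2A, ASPM, UBE2C, BIRC5 and TPX2 had at least 1 UMI. The cells were thus chosen by their measured UMIs of these 6 genes. By this rule 1726 of the 20625 kept cells of days 12 and 15 were dividing, out of 48282 kept cells and 67056 cell barcodes over all days. The 17668 cells that passed the same rule on days 6 and 9, of 27657 kept, and the kept cells of each late library that did not pass it served for comparison.

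SW620 is an established line from a lymph node metastasis of a colorectal cancer. It was grown with or without overexpression of TET2CD, the catalytic domain of TET2, an enzyme that oxidises 5-methylcytosine and so starts the removal of DNA methylation. The control is called SW620 in the labels and, in the study's text, SW620-FLAG, as it carries an empty FLAG vector. Both lines grew as colonies without passage, and 1 library of each line was made with a 10x 3′ kit on each of days 6, 9, 12 and 15, giving 8 libraries. With 1 library for each line and day, nothing shows that libraries of the same line stand for separate cultures. Each p-value thus measures the spread among these libraries, which may be technical. Where days 6 and 9 are pooled as early and days 12 and 15 as late, change within a period also counts as spread. TET2CD comes from an added vector, with a promoter not given in the sources used here, nor is it stated whether a line is 1 clone, and the construct's own UMIs cannot be told apart from those of the endogenous gene.

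A dividing cell copies its DNA in S phase and segregates it in mitosis, and each step has its own set of periodic transcripts. Replication genes are transcribed from the end of G1 by E2F factors, once the RB family has been phosphorylated by cyclin-dependent kinases (CDKs). Mitotic genes are transcribed later, in G2, by the MuvB complex together with MYBL2 and FOXM1, through a promoter element called the cell cycle genes homology region (CHR), often near CCAAT boxes. CDK inhibitors hold cells in G1, and hypoxia-inducible factor (HIF), which is stable when oxygen is scarce, switches on genes for glucose uptake, acid export and blood vessel growth.

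The promoters of 4 cycle genes are shown because they hold the 2 kinds of element whose shares are given below for mitotic and replication genes. Each is the 300 bases from 250 before to 50 after the RefSeq start in GRCh38.p14, printed 5′ to 3′ on the strand of the gene. Capitals mark the CHR (TTTGAA or TTCGAA) and the CCAAT box (CCAAT), on either strand, in TOP2A, the topoisomerase that untangles sister chromatids, and CCNB2, cyclin B2. They mark the E2F motif (TTTCCCGC, TTTCGCGC, TTTGCCGC or TTTGGCGC, on either strand) in MCM6, a subunit of the replicative helicase, and CDC6, which loads that helicase on origins. In MCM6 matches on the 2 strands overlap, so that each block of capitals holds 2 of them. The MCM6 window also holds 1 CHR match and 2 CCAAT matches, and that of CDC6 3 CCAAT matches, all left in lower case.
TOP2A, minus strand of chr17:40417847-40418146: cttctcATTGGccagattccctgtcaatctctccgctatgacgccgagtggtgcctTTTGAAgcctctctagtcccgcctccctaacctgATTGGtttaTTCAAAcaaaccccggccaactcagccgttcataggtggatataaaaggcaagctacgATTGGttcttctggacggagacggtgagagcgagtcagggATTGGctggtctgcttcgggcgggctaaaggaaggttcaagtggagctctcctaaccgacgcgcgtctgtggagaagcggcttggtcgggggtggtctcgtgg
CCNB2, plus strand of chr15:59104896-59105195: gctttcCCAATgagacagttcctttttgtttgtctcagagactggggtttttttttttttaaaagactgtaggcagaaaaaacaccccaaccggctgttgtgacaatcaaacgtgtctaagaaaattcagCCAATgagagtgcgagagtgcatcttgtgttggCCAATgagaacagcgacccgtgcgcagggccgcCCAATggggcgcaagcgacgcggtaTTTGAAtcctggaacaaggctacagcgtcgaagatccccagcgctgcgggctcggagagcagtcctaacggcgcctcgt
MCM6, minus strand of chr2:135876394-135876693: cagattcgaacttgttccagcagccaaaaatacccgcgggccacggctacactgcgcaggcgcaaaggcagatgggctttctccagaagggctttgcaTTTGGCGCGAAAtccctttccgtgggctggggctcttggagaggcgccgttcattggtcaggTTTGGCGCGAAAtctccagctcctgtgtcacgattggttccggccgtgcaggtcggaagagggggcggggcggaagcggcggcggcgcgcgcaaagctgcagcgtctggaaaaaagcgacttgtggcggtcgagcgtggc
CDC6, plus strand of chr17:40287629-40287928: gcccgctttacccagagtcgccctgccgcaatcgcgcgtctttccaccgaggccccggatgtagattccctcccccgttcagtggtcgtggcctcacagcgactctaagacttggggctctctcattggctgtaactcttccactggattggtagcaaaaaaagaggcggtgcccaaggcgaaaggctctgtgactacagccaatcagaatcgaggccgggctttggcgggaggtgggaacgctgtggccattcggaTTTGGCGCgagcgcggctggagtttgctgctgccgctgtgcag

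The CHR was found in 22 of the 29 mitotic genes with a RefSeq promoter (75.9%), in 2 of 23 replication genes (8.70%), MCM6 among them, and in 16.6% of all 27305 promoters of that length. A CHR and a CCAAT box stood together in 19 of the 29 mitotic genes (65.5%), in 2 of the 23 replication genes and in 6.58% of all promoters. The E2F motif was found in 16 of the 23 replication genes (69.6%), in 3 of the 29 mitotic genes (10.3%) and in 3.33% of all promoters. Of the 6 genes of the rule, 3 had a RefSeq promoter in the table (MKI67, TOP2A and ASPM), and all 3 held both a CHR and a CCAAT box. These matches describe letters in a window and not bound sites.

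The share of dividing cells was lower on the late days in both lines. In SW620 it was 72.0% on day 6 and 55.6% on day 9, then 5.62% on day 12 (221 of 3930 cells, exact Clopper-Pearson 95% interval 4.92 to 6.39%) and 6.96% on day 15 (481 of 6913, 6.37 to 7.58%). In SW620-TET2CD it was 68.2% and 61.1%, then 15.6% on day 12 (607 of 3894, 14.5 to 16.8%) and 7.08% on day 15 (417 of 5888, 6.44 to 7.77%). The intervals cover counting error only. The highest late share, that of SW620-TET2CD on day 12, was still far below the lowest early one, and on day 15 the intervals of the lines overlapped. These shares are set by the rule and by how deeply a cell was read, and they were given no test. Thinned to 2000 UMIs per cell before the rule was applied, which left out 18 to 89 cells of a library, the shares were 19.9%, 25.7%, 2.18% and 3.85% in SW620 and 25.3%, 22.0%, 4.67% and 3.60% in SW620-TET2CD on days 6, 9, 12 and 15. The limits on genes and UMIs removed many cells of the class: among barcodes above them, at least 3 markers were found in 514 of 1142 and 67 of 129 in SW620 and in 1118 of 1588 and 242 of 410 in SW620-TET2CD on days 12 and 15. Without upper limits the late shares became 14.5% and 7.78% in SW620 and 31.5% and 10.5% in SW620-TET2CD. Doublets were not called, and a barcode that held a dividing cell and another cell would pass the rule.

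**Figure D1:**
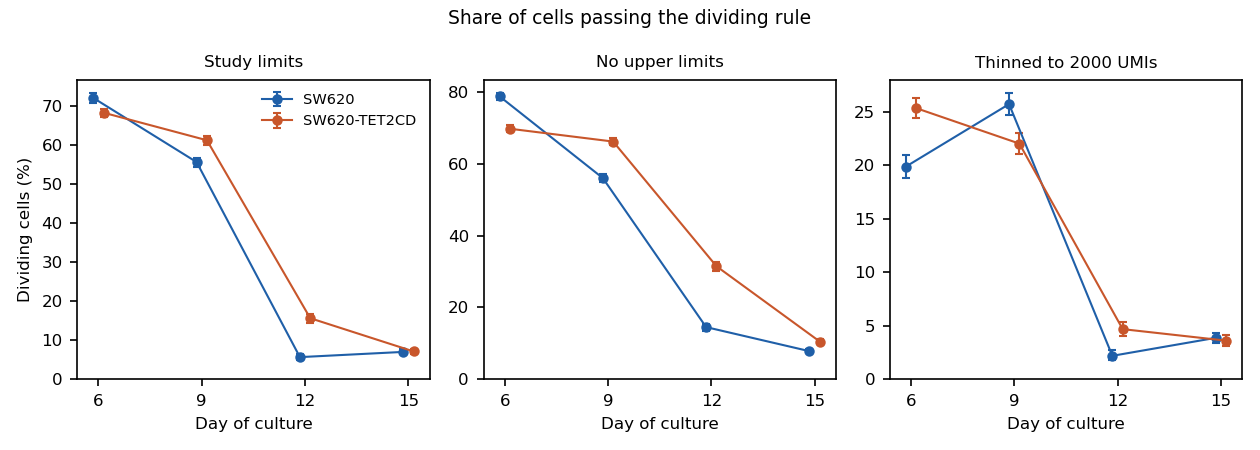
Percent of kept cells called dividing (vertical axis) by day of culture (horizontal axis) for SW620 and SW620-TET2CD, under the limits used, without upper limits, and after thinning each cell to 2000 UMIs, each panel with its own vertical scale. Bars around points are exact 95% intervals. The late shares lie below the early ones under all 3 settings, and SW620-TET2CD on day 12 is the highest late library.

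The dividing cells formed the upper end of the distribution of marker counts. Cells with 3 or 4 markers were few in 3 of the 4 late libraries, while in SW620-TET2CD on day 12 the distribution ran on without a clear gap. In SW620, 66.7% of cells on day 12 and 71.3% on day 15 held none of the 6 genes, 0.992% and 0.897% held 3, and 2.37% and 3.12% held all 6. In SW620-TET2CD 57.0% and 66.2% held none, 4.11% and 1.22% held 3, and 5.44% and 3.38% held all 6. Cells with all 6 were thus more frequent than cells with 3 in each late library. Just outside the threshold, with 2 markers, were 140 and 155 cells in SW620 and 254 and 231 in SW620-TET2CD, whose median level of 31 mitotic genes outside the rule was 1.74, 2.05, 3.63 and 2.02 UMIs per 10000. Just inside, with 3 markers, were 39, 62, 160 and 72 cells, with medians of 8.13, 13.7, 10.2 and 10.3 UMIs per 10000, against 49.8, 59.4, 43.3 and 53 in cells with all 6.

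**Figure D2:**
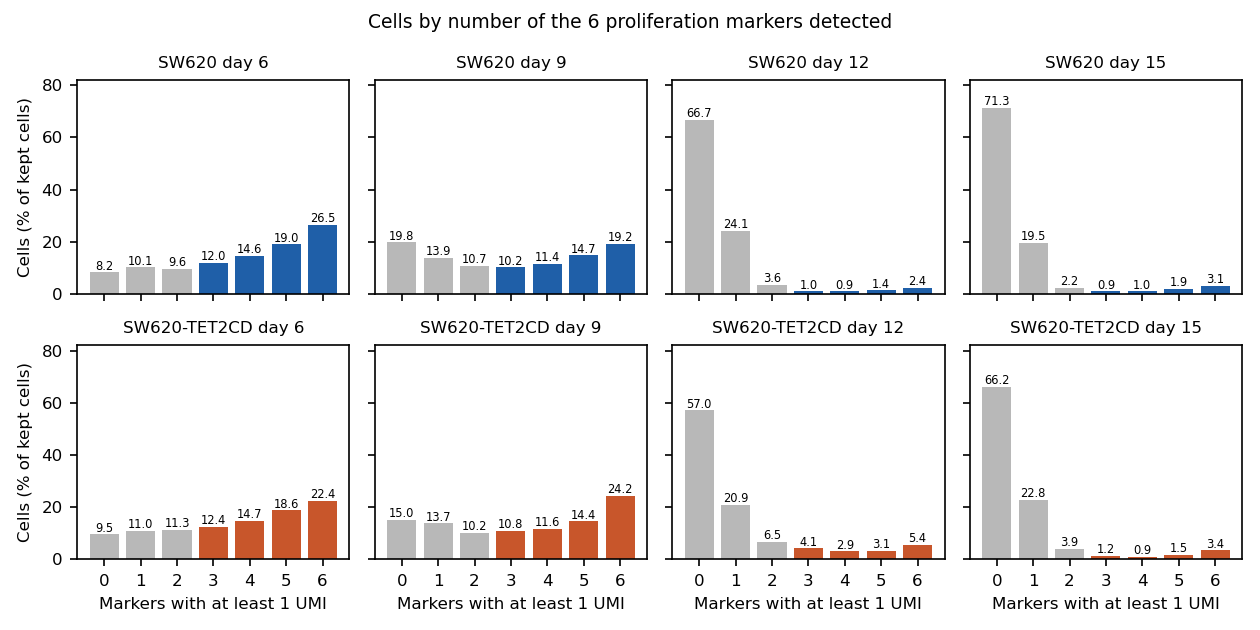
Percent of kept cells (vertical axis) by the number of the 6 marker genes with at least 1 UMI (horizontal axis), 1 panel per library. On days 12 and 15 most cells hold 0 or 1 marker and a small group holds 5 or 6, with the threshold of 3 between them. SW620-TET2CD on day 12 has more cells with 3 or 4 markers than the other late libraries.

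Summed over cells, the dividing cells gave 3202675 and 5397489 UMIs in SW620 and 8814379 and 5110068 in SW620-TET2CD on days 12 and 15, and 35347909 to 56361241 per library on the early days. Their median UMIs per cell were higher than those of the other late cells in each library (14988 against 12992 and 11340 against 6942.5 in SW620, 15162 against 11981 and 12816 against 8092 in SW620-TET2CD). Pairs of libraries shared 11 to 31 cell barcodes. Of 15 genes of other cell types, such as blood, endothelial and stromal cells, 7 to 9 were at 0 in the dividing cells of a late library, PTPRC, CD3E and MS4A1 among them. The 15 together made 19.2 to 50.4 CPM (the UMIs of a gene divided by all UMIs of the summed cells and scaled to the same total in each sum), against 17.9 to 48.2 in the other late cells. The upper end came from SW620 on day 15, where CD68, a lysosomal protein also used to mark macrophages, was at 39.8 CPM. EPCAM, the epithelial adhesion molecule, was at 640.3, 482, 596 and 531 CPM in SW620 and 548, 541, 583 and 492 CPM in SW620-TET2CD in the dividing cells of days 6, 9, 12 and 15.

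The 6 genes that chose the cells are given as a description. MKI67 (chr10:128096659-128126423, minus strand), the nuclear antigen Ki-67, was at 263 and 351 CPM in SW620 and 215 and 443 CPM in SW620-TET2CD in the dividing cells of days 12 and 15 and at 2.06 and 1.96 CPM in SW620 and 3.51 and 2.57 CPM in SW620-TET2CD in the other cells. TOP2A (chr17:40388525-40417896, minus strand) was at 527 and 739 CPM in SW620 and 425 and 772 CPM in SW620-TET2CD against 7.17 and 8.24 CPM in SW620 and 12.4 and 12.5 CPM in SW620-TET2CD. UBE2C (chr20:45812576-45816957, plus strand), which carries ubiquitin to the anaphase-promoting complex, was at 332 and 715 CPM in SW620 and 239 and 360.5 CPM in SW620-TET2CD against 1.28 and 3.12 CPM in SW620 and 3.61 and 1.94 CPM in SW620-TET2CD. The other 3 were ASPM (chr1:197084121-197146694, minus strand), a spindle pole protein, BIRC5 (chr17:78214186-78225636, plus strand), survivin of the chromosomal passenger complex, and TPX2 (chr20:31739271-31801805, plus strand), a spindle assembly factor. TPX2 separated the classes least: it was still at 18.6 and 24.0 CPM in SW620 and 16.2 and 26.4 CPM in SW620-TET2CD in the other cells, so a single TPX2 UMI marks a cell less than a UMI of the remaining genes does. Coordinates of genes are those of the GRCh38 annotation.

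The genes outside the rule followed it. On the late days 400 of 16039 genes (2.49%) were at least 2-fold higher in dividing than in other cells in 4 of 4 libraries and 36 (0.224%) at least 2-fold lower, on a scale of log2(CPM + 1), against 136 (0.848%) and 11 (0.0686%) on the early days. The rule used this contrast, so these counts have no test. All 31 mitotic genes were among the 400, with a median log2 ratio of 4.86, against −0.02 over all genes. KIF2C, a kinesin that frees wrongly attached chromosomes, was at 69.6 and 117 CPM in SW620 and 48.2 and 102 CPM in SW620-TET2CD in dividing cells and at 0.294 and 0.506 CPM in SW620 and 0.864 and 0.501 CPM in SW620-TET2CD in the others. Outside the lists, the highest median log2 ratios belonged to GTSE1 (5.82), KIF4A (5.55), NEK2 (5.51) and PIMREG (5.51), all known from G2 and mitosis.

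Replication genes marked the late dividing cells much more sharply than the early ones. At least 2-fold higher in 4 of 4 libraries were 25 of 27 on the late days, with a median log2 ratio of 2.36, and 1 of 27 on the early days, with a median of 0.60. RRM2, the small subunit of ribonucleotide reductase, was at 86.2 and 72.1 CPM in SW620 and 70.2 and 75.1 CPM in SW620-TET2CD in late dividing cells and at 1.70 and 1.45 CPM in SW620 and 3.30 and 1.85 CPM in SW620-TET2CD in the other late cells. On days 6 and 9 the cells that did not pass the rule still held it at 28.5 and 35.8 CPM in SW620 and 48.8 and 23.3 CPM in SW620-TET2CD. Of 13 measured histone genes 9 passed the same limit on the late days, with a median log2 ratio of 2.70, and 9 did so on the early days, with a median of 1.71. Among cycle transcription factors 7 of 14 did on the late and 2 of 14 on the early days, MYBL2 with a median log2 ratio of 4.61 on the late days and FOXM1 with 4.62. DNMT1, which copies DNA methylation behind the replication fork, stood at 137 and 117 CPM in SW620 and 141 and 151 CPM in SW620-TET2CD against 40.1 and 38.0 CPM in SW620 and 51.6 and 46.8 CPM in SW620-TET2CD, and TET1, TET3, DNMT3A and DNMT3B did not reach 2-fold in all 4 libraries.

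Genes lower in the late dividing cells came from several groups. TFF3, a peptide secreted by goblet cells, was at 591 and 623 CPM in SW620 and 516 and 347 CPM in SW620-TET2CD in dividing and 1477 and 1423 CPM in SW620 and 1105 and 1154 CPM in SW620-TET2CD in other cells. NEAT1, the long RNA that builds paraspeckles, was at 622 and 917 CPM in SW620 and 576 and 1185 CPM in SW620-TET2CD against 1452 and 2199 CPM in SW620 and 1458 and 3357 CPM in SW620-TET2CD. In both genes each dividing sum lay below the sum of the other cells of its own library. Further genes with a low ratio were the chloride channel protein CLIC3 (median log2 ratio −1.84), IGFL2-AS1 (−1.77), KLF3-AS1 (−1.70), SDCBP2 (−1.55), DIO3OS (−1.53) and the tetraspanin TSPAN8 (−1.42). The list medians were −0.28 for HIF targets, −0.48 for invasion genes and −0.61 for late proteases, against 0.34 for ribosome biogenesis and 0.51 for the amino acid stress response. Of 8 measured mesenchymal genes none was 2-fold higher or lower in 4 of 4 libraries, and the list had a median of −0.03.

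The balance between S phase and mitosis differed between early and late dividing cells. Thinned to 2000 UMIs, a dividing cell held more UMIs of the 27 replication genes than of the 31 mitotic genes in 58.9% and 40.0% of SW620 cells on days 6 and 9, and in 31.5% and 23.2% on days 12 and 15. In SW620-TET2CD the shares were 48.3% and 49.4%, then 35.4% and 29.5%. The reverse, more mitotic than replication UMIs, held for 34.1%, 53.7%, 61.2% and 71.1% in SW620 and for 43.9%, 43.5%, 55.4% and 65.1% in SW620-TET2CD. In both lines each late library thus had fewer cells with a replication surplus than each early one, and no test was made on single cells. The 6 genes of the rule are known to peak in G2 and mitosis, so the rule itself favours those phases. Barcodes above the upper limits with at least 3 markers are not in these shares. They numbered 1968, 86, 514 and 67 in SW620 and 438, 1037, 1118 and 242 in SW620-TET2CD on days 6, 9, 12 and 15. On day 12 they outnumbered the dividing cells that were kept, and their part in the balance was not tested.

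The summed levels moved the same way. In dividing cells the 27 replication genes together made 3065, 2463, 1926 and 1438 CPM in SW620 and 2749, 2725, 1914 and 1809 CPM in SW620-TET2CD on days 6, 9, 12 and 15. The 31 mitotic genes made 2530.3, 3289, 3405 and 4208 CPM and 2853, 2821, 2879.8 and 3989 CPM. Replication levels did not overlap between early and late days in either line, and mitotic levels did not overlap either, though the day 12 library of SW620-TET2CD lay only just above its day 6 library.

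**Figure D3:**
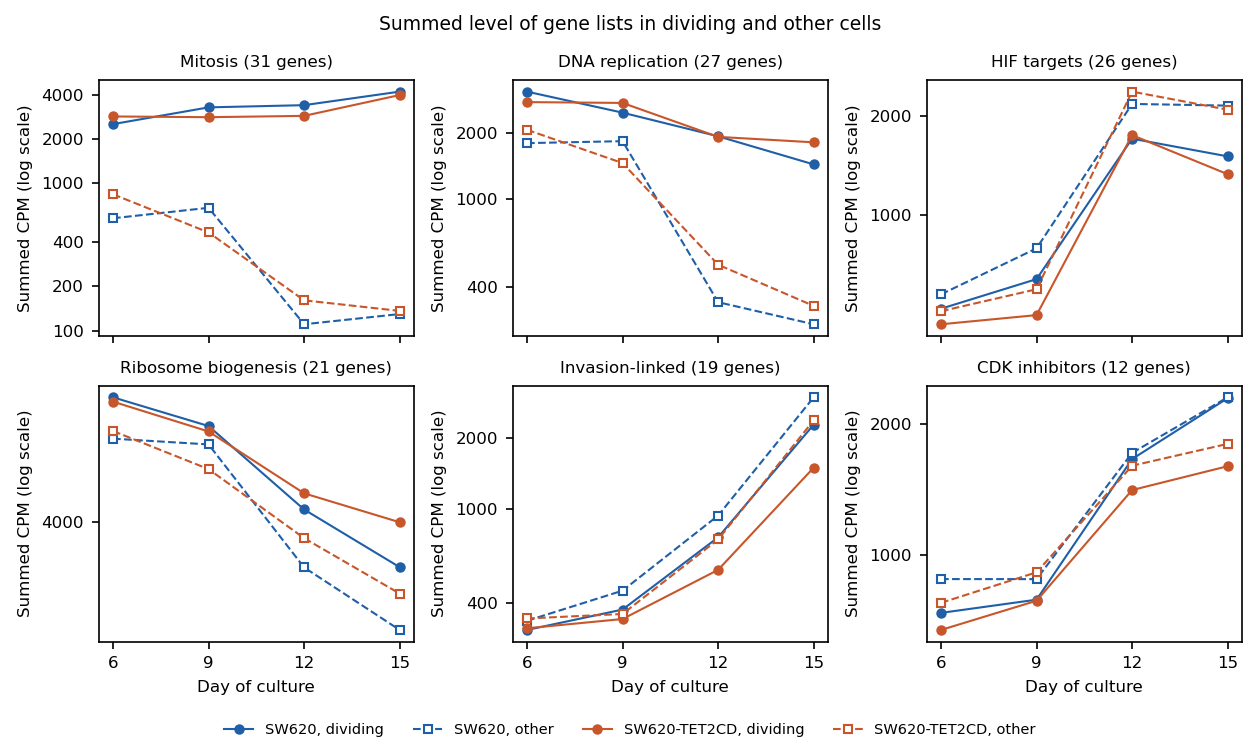
Summed CPM of 6 gene lists (vertical axis, log scale) by day (horizontal axis) in dividing cells and other cells of SW620 and SW620-TET2CD, 1 point per library. In dividing cells the mitotic list stays at 2530.3 CPM or above on every day while the replication list falls, and in the other cells both drop on days 12 and 15.

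Late and early dividing cells were then compared across all genes, a contrast the rule did not use, since it was applied alike to each library. By its 6 markers the rule chose 5.62 to 15.6% of kept cells in late and 55.6 to 72.0% in early libraries. The part of this choice in the changes of cycle genes was not tested. Of 14356 genes tested, 5471 passed (38.1%), 2723 of them higher on the late days (19%) and 2748 lower (19.1%), by edgeR's quasi-likelihood test on UMI sums of 8 libraries with the line as a block and Benjamini-Hochberg adjustment, the test behind each adjusted p that follows unless another is named. Fold changes are log2 ratios of late to early dividing cells. Each SE here and below is the log2 value, without its sign, divided by the square root of the test's F statistic. With upper-quartile instead of TMM factors the split was 3382 higher and 2078 lower, and the median log2 fold change of all genes moved from 0.03 to 0.12. The late sums were shallower than the early ones throughout, and the part of that depth in this contrast was not tested. Thinning each cell to 2000 UMIs before the rule, which evens the depth of cells and not of sums, left 85 to 263 late and 1098 to 2058 early dividing cells in a library and called 1201 genes higher and 1098 lower.

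Among mitotic genes most did not pass. The rule chose the cells by markers of this class, so the values of these genes are a description. Of 31, 5 were higher and 1 lower on the late days, with a median log2 fold change of 0.22, against 19% and 19.1% of all genes. PTTG1, securin, which guards sister chromatid cohesion until anaphase, was at 248, 258, 529 and 662 CPM in SW620 and 257, 247, 447 and 432 CPM in SW620-TET2CD on days 6, 9, 12 and 15. All 4 late values lay above all early ones (log2 fold change 0.94 ± 0.15 (SE), adjusted p = 7.5e-04). NUF2, a kinetochore subunit, stood at 52.3, 59.9, 79.0 and 89.3 CPM in SW620 and 54.5, 52.3, 77.7 and 92.6 CPM in SW620-TET2CD (0.54 ± 0.11 (SE), adjusted p = 0.0032). HJURP, the chaperone of the centromeric histone, KIF14 and CENPE were the other 3, with log2 fold changes of 0.68, 0.73 and 0.42. PLK1, the kinase that drives entry into mitosis, was the gene that fell, at 92.4, 130.1, 73.4 and 96.9 CPM in SW620 and 114, 96.8, 72.9 and 88.5 CPM in SW620-TET2CD (−0.47 ± 0.15 (SE), adjusted p = 0.026), with overlap between early and late days in SW620. CCNB1 (−0.15, adjusted p = 0.36), CDC20 (−0.02, adjusted p = 0.95) and AURKB (0.10, adjusted p = 0.63) were not called. The direction of the mitotic list depended on how strictly dividing cells were defined: 1 higher and 5 lower with at least 2 markers, 10 and 1 with at least 4, 14 and 0 with all 6, and 16 and 0 after thinning. Single libraries moved it too, from 2 higher genes without SW620 on day 6 or without SW620 on day 15, and 3 without SW620-TET2CD on day 15, to 10 without SW620-TET2CD on day 12.

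Replication genes were lower in late dividing cells. Of 27, 23 fell and none rose, with a median log2 fold change of −0.72, against 19.1% of all genes. GINS2, part of the helicase at the fork, was at 144, 105, 57.1 and 30.0 CPM in SW620 and 144, 126, 73.2 and 39.9 CPM in SW620-TET2CD, and each late value lay below each early one (log2 fold change −1.46 ± 0.23 (SE), adjusted p = 7.2e-04). CLSPN, claspin, which relays checkpoint signals at the fork, was at 138, 108, 61.8 and 39.6 CPM in SW620 and 132, 125, 69.8 and 64.2 CPM in SW620-TET2CD (−1.19 ± 0.15 (SE), adjusted p = 2.9e-04). MCM5 was at 80.9, 60.6, 36.2 and 16.5 CPM in SW620 and 75.8, 70.2, 42.3 and 25.0 CPM in SW620-TET2CD (−1.35 ± 0.23 (SE), adjusted p = 0.0011). MCM6 and CDC6, whose promoters are printed above, fell by less, at −0.64 (adjusted p = 0.009) and −0.73 (adjusted p = 0.0043). CDT1, POLE and RPA2 were among those not called, with log2 fold changes of 0.07, −0.32 and −0.13. Over the alternatives 18 to 26 of the list fell. With all 6 markers required, 21 fell and 1 rose.

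Of 14 transcription factors of the cycle 5 fell and 2 rose, against 19.1% and 19% of all genes. MYBL2 was at 111, 107, 62.4 and 37.4 CPM in SW620 and 103, 105, 47.8 and 45.4 CPM in SW620-TET2CD, without overlap between early and late days (log2 fold change −1.24 ± 0.14 (SE), adjusted p = 1.9e-04). FOXM1 was at 68.9, 83.1, 45.0 and 53.2 CPM in SW620 and 82.8, 86.5, 49.0 and 52.8 CPM in SW620-TET2CD (−0.76 ± 0.12 (SE), adjusted p = 7.9e-04), and E2F1 at 35.3, 25.2, 18.1 and 12.2 CPM in SW620 and 29.9, 28.2, 17.7 and 14.1 CPM in SW620-TET2CD (−1.02 ± 0.17 (SE), adjusted p = 9.2e-04). TFDP1, the partner of E2F factors (−1.06), and RBL1, the RB relative p107 (−0.38), were also lower, and RBL2, the RB relative p130 found in resting cells (0.89, adjusted p = 9.5e-04), and LIN37 of the MuvB complex (0.45, adjusted p = 0.048) were higher. Among cyclins and CDKs 4 of 10 fell and none rose, to be read against the same shares: CCNE1 (−1.48), CCND3 (−1.14), CDK4 (−1.10) and the phosphatase CDC25A (−0.97). CCND1, cyclin D1, was at 210.0, 217, 236 and 229 CPM in SW620 and 211, 213, 204 and 235 CPM in SW620-TET2CD (−0.00 ± 0.11 (SE), adjusted p = 0.99). Of 13 histone genes 1, HIST1H4C, fell and none rose. Their messages mostly lack a poly(A) tail, so the 3′ kit captures them only in part, and near-identical copies make their counts uncertain.

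Inhibitors of the cycle were higher in cells that were themselves dividing. Of 12 inhibitors and antiproliferative genes 11 rose and none fell, with a median log2 fold change of 1.13, against 19% and 19.1% of all genes. Summed, they made 739, 792, 1661 and 2289 CPM in SW620 and 676, 788, 1411 and 1599.8 CPM in SW620-TET2CD on days 6, 9, 12 and 15. The other cells of the same libraries held 883, 883, 1716 and 2299 CPM and 779, 915, 1604 and 1799 CPM, also higher on the late days. CDKN2B, the CDK4 and CDK6 inhibitor p15, was at 3.71, 8.18, 23.7 and 65.0 CPM in SW620 and 5.56, 8.73, 22.5 and 47.6 CPM in SW620-TET2CD, each late value above each early one (log2 fold change 2.52 ± 0.35 (SE), adjusted p = 4.1e-04). CDKN1C, p57, was at 15.8, 13.4, 34.3 and 42.2 CPM in SW620 and 11.4, 11.2, 24.4 and 27 CPM in SW620-TET2CD (1.21 ± 0.14 (SE), adjusted p = 1.7e-04). CDKN1A, p21, was low throughout, at 1.14, 1.56, 5.62 and 10.9 CPM in SW620 and 1.46, 1.87, 2.72 and 2.94 CPM in SW620-TET2CD (1.69 ± 0.39 (SE), adjusted p = 0.0052). BTG1, an antiproliferative cofactor, was at 282, 421, 826 and 1124 CPM in SW620 and 243, 368, 654 and 744 CPM in SW620-TET2CD (1.25 ± 0.18 (SE), adjusted p = 5.1e-04). GADD45A (1.05), GADD45B (1.37) and CCNG2 (1.68) rose as well. CDKN2C was the gene not called (−0.17, adjusted p = 0.35). Set against the other late cells, CDKN2A, CDKN2C and CDKN2D were higher in dividing cells of each library, with median log2 ratios of 0.49, 1.04 and 1.00, and that of CDKN2B was −0.17. In the test of the difference between dividing and other cells, given further on, 3 of the 12 had a higher change in dividing cells, 2 a lower one and 7 were not called, with a median difference of 0.03.

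HIF targets were the group with the largest median rise among lists of more than 5 tested genes. Late proteases, with 5 tested, had a larger median of 1.77. Of 24 tested of 26, 21 rose and none fell, with a median log2 fold change of 1.49, against 19% and 19.1% of all genes. Over the alternatives 18 to 21 rose. The promoters of CA9, carbonic anhydrase 9, which exports acid in hypoxic cells, and DDIT4, an inhibitor of mTOR complex 1, are shown since the account of this list begins with these 2 genes. Capitals mark the core of the hypoxia response element (ACGTG or GCGTG, on either strand), found in 18 of 21 HIF targets with a promoter (85.7%), in 21 of 29 mitotic genes and in 48.4% of all promoters.
CA9, plus strand of chr9:35673678-35673977: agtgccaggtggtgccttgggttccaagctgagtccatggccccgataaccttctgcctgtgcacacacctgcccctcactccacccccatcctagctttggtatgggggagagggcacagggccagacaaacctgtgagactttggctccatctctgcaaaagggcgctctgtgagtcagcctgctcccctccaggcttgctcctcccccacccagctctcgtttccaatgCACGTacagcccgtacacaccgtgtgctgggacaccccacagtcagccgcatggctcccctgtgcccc
DDIT4, plus strand of chr10:72273674-72273973: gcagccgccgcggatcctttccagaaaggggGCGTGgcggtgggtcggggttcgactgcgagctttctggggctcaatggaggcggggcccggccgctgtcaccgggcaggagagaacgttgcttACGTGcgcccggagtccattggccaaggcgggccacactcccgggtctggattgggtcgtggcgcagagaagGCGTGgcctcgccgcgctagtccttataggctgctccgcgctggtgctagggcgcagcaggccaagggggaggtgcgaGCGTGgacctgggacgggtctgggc

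CA9 in dividing cells was at 26.2, 29.0, 249.8 and 173 CPM in SW620 and 11.9, 16.3, 213 and 129 CPM in SW620-TET2CD on days 6, 9, 12 and 15. Both lines moved from a low early to a high late level without overlap (log2 fold change 3.19 ± 0.22 (SE), adjusted p = 9.0e-06), and the other cells of the same libraries stood at 27.8, 40.2, 229 and 147 CPM in SW620 and 13.8, 20.5, 244 and 127 CPM in SW620-TET2CD. Thinned to 2000 UMIs, 34.2% of dividing cells held a CA9 UMI in SW620 on day 12 (exact 95% interval 28.0 to 40.9%) and 4.82% on day 6, against 35.2% and 4.93% of other cells. Without thinning it was 83.7% of dividing cells on day 12 and 26.7% on day 6. DDIT4 was at 3.02, 24.2, 144 and 240.5 CPM in SW620 and 2.78, 7.49, 185 and 157 CPM in SW620-TET2CD (4.37 ± 0.56 (SE), adjusted p = 2.8e-04). NDUFA4L2, a mitochondrial protein that restrains complex I, was at 0.248, 4.55, 44 and 16.7 CPM in SW620 and 0.0713, 2.29, 98.5 and 35.8 CPM in SW620-TET2CD (4.76 ± 0.86 (SE), adjusted p = 0.0015). VEGFA, the main angiogenic factor, was at 7.70, 12.6, 57.8 and 67.4 CPM in SW620 and 6.70, 8.85, 49.5 and 57.5 CPM in SW620-TET2CD (2.62 ± 0.17 (SE), adjusted p = 8.8e-06), and NDRG1 at 0.266, 1.67, 12.5 and 16.9 CPM in SW620 and 0.463, 1.08, 15.8 and 14.1 CPM in SW620-TET2CD (4.10 ± 0.42 (SE), adjusted p = 1.0e-04). SLC2A1, the glucose transporter GLUT1, rose from a higher base, at 157, 205, 414 and 368 CPM in SW620 and 136, 155, 369.6 and 313 CPM in SW620-TET2CD (1.09 ± 0.14 (SE), adjusted p = 2.6e-04). In none of these 6 genes did late and early values overlap within a line. Of all genes tested, 24.2% were higher on the late days without such overlap in either line. CA9, DDIT4, NDUFA4L2 and VEGFA were also among the largest rises, named by a rule that required no overlap. EGLN1, FAM162A and BNIP3 were not called. RNA released from other cells into the droplets was not measured, and its part in these levels was not tested.

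Of 18 glycolysis genes 5 rose and 2 fell, with a median log2 fold change of 0.24, against 19% and 19.1% of all genes, so neither count stood far from the background. PGK1, phosphoglycerate kinase, was at 503, 506, 1047 and 740.2 CPM in SW620 and 488, 440.4, 1162 and 698 CPM in SW620-TET2CD (0.84 ± 0.18 (SE), adjusted p = 0.0043), and the neuronal enolase ENO2 (1.41) and ALDOC (2.35) rose, while PKM (−0.60) and LDHB (−0.51) fell. GAPDH (−0.37, adjusted p = 0.16) and LDHA (0.34, adjusted p = 0.27) were not called. Of 28 nuclear genes of oxidative phosphorylation 13 fell and none rose, with a median log2 fold change of −0.39, against the same shares of all genes. UQCRQ of complex III was at 422, 409, 272 and 202 CPM in SW620 and 483, 416, 307 and 228 CPM in SW620-TET2CD (−0.86 ± 0.15 (SE), adjusted p = 0.0014). Of the 13 mitochondrially encoded genes 3 rose and none fell.

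Genes of ribosome assembly were lower in late dividing cells, with 19 of 21 fallen and none risen and a median log2 fold change of −0.88, against 19.1% lower and 19% higher of all genes. BOP1, which processes the large subunit RNA, was at 85.3, 75.5, 25.9 and 26.5 CPM in SW620 and 94.8, 67.8, 34.1 and 24.3 CPM in SW620-TET2CD, each late value below each early one (log2 fold change −1.62 ± 0.17 (SE), adjusted p = 1.2e-04). NOP56, a core protein of box C/D snoRNPs, was at 535, 515, 272 and 165 CPM in SW620 and 542, 478, 295 and 221 CPM in SW620-TET2CD (−1.21 ± 0.17 (SE), adjusted p = 4.4e-04). PA2G4 was at 776, 769.8, 382 and 292 CPM in SW620 and 862, 729, 416 and 406 CPM in SW620-TET2CD (−1.16 ± 0.13 (SE), adjusted p = 1.9e-04). Outside the lists SRM, spermidine synthase, was at 379, 302, 111 and 78.7 CPM in SW620 and 392, 303, 132 and 97.3 CPM in SW620-TET2CD (−1.81 ± 0.18 (SE), adjusted p = 8.5e-05), and ATAD3B (−2.34), whose near-identical family members make its counts uncertain, SFRP5 (−2.45), C6orf15 (−2.26), DIO3 (−2.21) and LPCAT1 (−1.96) were further genes with large falls among those of at least 20 CPM.

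Of 12 genes of the amino acid stress response and serine synthesis 10 rose and none fell. Their median log2 fold change was 0.76, and the shares of all genes were 19% and 19.1%. PHGDH, the first enzyme of serine synthesis, was at 16.6, 17.6, 55.9 and 71.1 CPM in SW620 and 13.8, 13.9, 33.8 and 62.0 CPM in SW620-TET2CD, all late above all early values (log2 fold change 1.74 ± 0.16 (SE), adjusted p = 6.6e-05). In the other cells it was at 14.2, 14.4, 16.5 and 35.2 CPM in SW620 and 10.7, 9.62, 15.2 and 23.6 CPM in SW620-TET2CD. ASNS, asparagine synthetase, was low, at 0.550, 0.622, 3.75 and 4.45 CPM in SW620 and 0.356, 0.386, 1.36 and 5.87 CPM in SW620-TET2CD (2.89 ± 0.37 (SE), adjusted p = 2.8e-04). CHAC1 (2.52), SESN2 (1.64), TRIB3 (1.04) and the factor ATF4 (0.65) rose too. PSAT1 (0.09) and PSPH (0.26), which like PHGDH are enzymes of serine synthesis, were not called. After thinning 6 of 9 tested rose, against 13.5% of all genes.

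Of 19 invasion genes 15 rose and 1 fell, with a median log2 fold change of 1.10, against 19% and 19.1% of all genes. PLAUR, the urokinase receptor, was at 4.28, 2.52, 11.9 and 49.3 CPM in SW620 and 3.72, 2.90, 7.03 and 14.3 CPM in SW620-TET2CD, highest on day 15 in both lines (log2 fold change 2.38 ± 0.44 (SE), adjusted p = 0.0017). ITGB4, the integrin of hemidesmosomes, was at 60.6, 82.6, 178 and 447 CPM in SW620 and 52.9, 68.5, 107 and 238 CPM in SW620-TET2CD (1.73 ± 0.30 (SE), adjusted p = 0.0012). AKAP12, a scaffold for kinases, was at 61.7, 98.7, 263 and 1156 CPM in SW620 and 89.2, 95.4, 188 and 752 CPM in SW620-TET2CD (2.65 ± 0.47 (SE), adjusted p = 0.0013). Summed, the list made 758 and 2276 CPM in SW620 and 552 and 1496 CPM in SW620-TET2CD on days 12 and 15. The rise of the list was thus mostly one of day 15. AKAP12 alone held 263 and 1156 of these CPM in SW620 and 188 and 752 in SW620-TET2CD. It thus made a large part of the sums, while the count of 15 of 19 weighs each gene alike. MMP7 was the gene that fell (−1.61), and PLAU, F3 and EREG were not called. After thinning only 9 of the 19 were tested, of which 7 rose, against 13.5% of all genes. Of 5 late proteases tested 4 rose, against 19% of all genes, with KLK6 at 32.7, 40.7, 137 and 149 CPM in SW620 and 21.8, 34.9, 95.6 and 92.8 CPM in SW620-TET2CD (1.77 ± 0.16 (SE), adjusted p = 6.1e-05). The lists of invasion genes and late proteases, like all lists here, were chosen with earlier results of these data known. Their counts are thus a description and give no independent support.

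The counts of the remaining lists, most of them short, are to be read against the 19% of all genes that were higher and the 19.1% that were lower. Of 11 epithelial genes 5 rose, CDH1, E-cadherin, at 23.1, 26.4, 45.9 and 71.5 CPM in SW620 and 29.9, 37.1, 63.9 and 68.7 CPM in SW620-TET2CD (1.04 ± 0.16 (SE), adjusted p = 6.3e-04), while KRT8, KRT18, KRT19 and EPCAM were not called. Of 8 mesenchymal genes ZEB1 alone rose (0.82, adjusted p = 0.021), and VIM, vimentin, was at 585, 408, 648 and 923 CPM in SW620 and 551, 312, 395 and 522 CPM in SW620-TET2CD (0.28 ± 0.23 (SE), adjusted p = 0.34). Of 12 p53 targets 6 rose and 1 fell. SW620 carries mutant p53. BBC3, the pro-apoptotic protein PUMA, had the largest rise among them, at 0.834, 1.24, 8.12 and 11.5 CPM in SW620 and 0.802, 0.853, 8.06 and 8.61 CPM in SW620-TET2CD (3.22 ± 0.22 (SE), adjusted p = 8.8e-06). Of 16 WNT targets 2 rose and 3 fell, near the shares of all genes, SOX9 (1.06) and APCDD1 (0.61) against LGR5 (−0.92), ASCL2 (−0.74) and BMP4 (−0.71). Cholesterol genes counted 1 higher and 3 lower of 13, which became 2 and 0 with upper-quartile factors. Of 5 differentiation genes TFF3 rose (0.66) and FABP1 (−1.57) and VIL1 (−0.55) fell, of 11 immediate early genes 4 rose, and of 6 TET and DNA methyltransferase genes TET1 rose (0.79) and DNMT1 (−0.66) and TET2 (−0.97) fell. For TET2 the lower late levels were mostly those of the line with the construct, with 1.81, 2.09, 1.56 and 1.67 CPM in SW620 and 106, 61.3, 37.1 and 48.7 CPM in SW620-TET2CD on days 6, 9, 12 and 15. Of 6 tested genes of other cell types 2 were higher and 2 lower. Outside the lists the largest rises at 20 CPM or more included LEMD1 (4.39), ISG20 (2.91), EEF1A2 (2.66), S100P (2.65) and TXNIP (2.58), a brake on glucose uptake.

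The changes over time in dividing and in other cells were then tested for a difference, with the library as a block. Of 16039 genes 2347 passed (14.6%), 1438 with a higher log2 change in dividing cells, the sign included (8.97%), and 909 with a lower one (5.67%). Of the 2723 genes higher in late dividing cells, 2275 were not called different from the other cells, 198 had a higher log2 change in dividing cells and 250 a lower one. Of the 2748 lower genes 2100 were not called different, 515 had a higher log2 change in dividing cells and 133 a lower one. A missed threshold does not show that the changes were equal. The rule split the classes, and the other cells differed with time: their mitotic list made 465 to 844 CPM early and 110 to 161 CPM late. How far this entered the differences of genes outside the cycle was not tested, and the shares over all genes include cycle genes. A further 1237 genes passed in the difference without a called change in dividing cells.

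**Figure D4:**
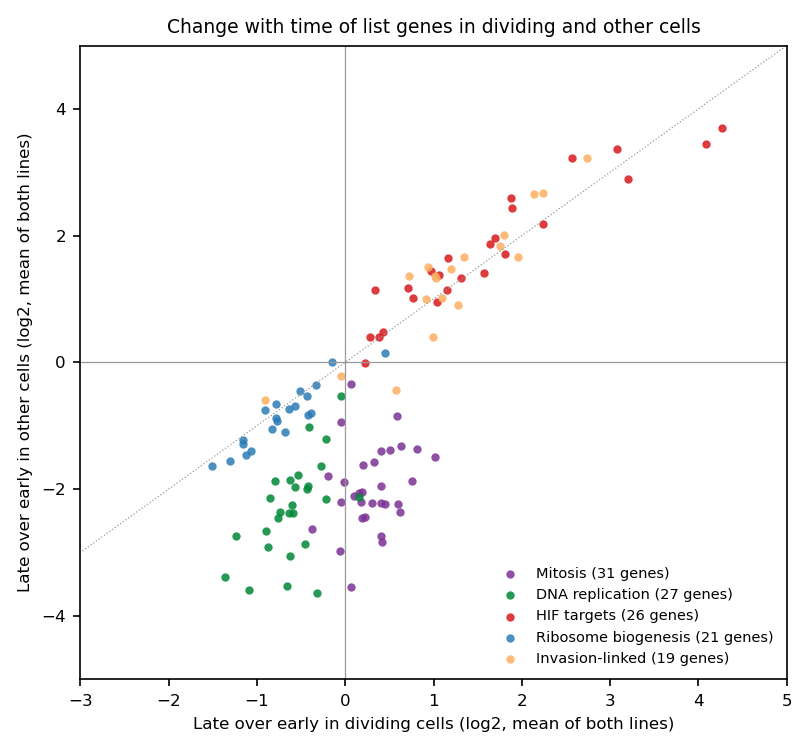
Log2 ratio of late to early CPM, as the mean of both lines, in dividing cells (horizontal axis) and in the other cells (vertical axis), 1 point per gene of 5 lists, with a dotted line of equal change. Mitotic and replication genes lie below the line, with lower log2 ratios in the other cells than in dividing cells, and HIF, invasion and ribosome biogenesis genes lie on both sides of it, with median differences of −0.11, −0.30 and 0.09.

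For cycle genes the difference is a description and supports nothing, since the rule split the cells of each library on markers of this class. The median log2 difference was 2.94 over the 31 mitotic genes and 1.68 over the 27 replication genes. CDC20, which activates the anaphase-promoting complex, held 143, 157, 146 and 196 CPM in SW620 and 159, 131, 146 and 132 CPM in SW620-TET2CD in dividing cells, while the others stood at 37.5, 33.7, 1.60 and 2.15 CPM in SW620 and 59.4, 21.1, 4.27 and 1.46 CPM in SW620-TET2CD (log2 difference 3.98). RRM2, described above, had one of 3.30. In the early libraries the cells that did not pass the rule still held cycle transcripts: their 31 mitotic genes made 580.1 and 683 CPM in SW620 and 844 and 465 CPM in SW620-TET2CD on days 6 and 9, and 110.4, 129.5, 160.6 and 136 CPM on days 12 and 15 of the 2 lines. For MYBL2, which was lower in late dividing cells, the log2 difference was 3.75, with the other cells at 40.8, 43.1, 0.736 and 0.569 CPM in SW620 and 53.8, 29.1, 3.25 and 0.893 CPM in SW620-TET2CD, and for E2F1 it was 2.42.

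HIF targets mostly showed no called difference, and those that did mostly had a lower log2 change in dividing cells. Of 25 tested, 7 had a lower change in them, 2 a higher one and 16 were not called, with a median difference of −0.11, against 8.97% higher and 5.67% lower over all genes. VEGFA rose to 57.8 and 67.4 CPM in SW620 and 49.5 and 57.5 CPM in SW620-TET2CD in late dividing cells and to 104 and 106 CPM in SW620 and 80.0 and 103 CPM in SW620-TET2CD in the others (difference −0.70 ± 0.10 (SE), adjusted p = 7.3e-05). SLC2A1 reached 414 and 368 CPM in SW620 and 369.6 and 313 CPM in SW620-TET2CD against 677 and 769 CPM in SW620 and 587 and 668 CPM in SW620-TET2CD (−0.54 ± 0.09 (SE), adjusted p = 3.2e-04). EGLN3, an oxygen sensor, had a lower change too (−0.80 ± 0.13 (SE), adjusted p = 1.5e-04). So did the glycolytic enzyme GPI (−0.80 ± 0.10 (SE), adjusted p = 1.5e-05), which was not called late against early in dividing cells. DDIT4 (0.64) and NDUFA4L2 (0.92) were the 2 that rose more, from lower early levels in dividing cells. CA9 was not called (0.27 ± 0.10 (SE), adjusted p = 0.07).

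The counts of the other lists are to be read against the 8.97% of all genes with a higher and the 5.67% with a lower change in dividing cells. PHGDH rose more in them (0.89 ± 0.13 (SE), adjusted p = 6.9e-05). A higher change was also called for MTHFD2 (0.42), PSAT1 (0.71), PSPH (0.33) and SHMT2 (0.31), of which PSAT1 and PSPH had no called rise in dividing cells, so that 5 of the 12 genes of that list passed, none in the other direction. All 5 are known from serine and one-carbon metabolism, a grouping made after the calls and not tested. PHGDH lost this call after thinning, and SHMT2 and PSPH lost it when single libraries were left out. Of 8 mesenchymal genes VIM had a higher change (0.83 ± 0.14 (SE), adjusted p = 3.9e-04) and 3 had a lower one, with a median difference of −0.10. COX8A (0.60) and ATP5F1B (0.38) were among the 9 of 28 oxidative phosphorylation genes with a higher value, and none had a lower one. Cholesterol genes went the other way: 5 of 13 passed, all with a lower log2 change in dividing cells, INSIG1 (−0.72), HMGCS1 (−0.61), SC5D (−0.58) and SQLE (−0.51) among them. Of 21 ribosome biogenesis genes 5 had a higher change and none a lower one. Of 19 invasion genes 5 had a lower change in dividing cells and 2 a higher one, EREG (1.02) and PLAU (0.63).

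Within a late library, dividing cells were not spread evenly over the levels of other programmes. Cells thinned to 2000 UMIs were ranked by their UMIs of a gene list and split into quartiles, with the dividing call kept from all UMIs. Ties were broken at random. From the lowest to the highest quartile of HIF target UMIs the dividing share went from 7.47% to 3.58% and from 11.3% to 2.81% in SW620 on days 12 and 15, and from 23.4% to 9.18% and from 11.5% to 1.85% in SW620-TET2CD. It went the other way for ribosome biogenesis, from 2.56% to 10.0% and from 2.46% to 12.1% in SW620 and from 8.88% to 24.4% and from 2.05% to 15.0% in SW620-TET2CD. Both directions held in 4 of 4 late libraries. The exact 95% intervals of the end quartiles did not overlap, but they cover counting error only. The early libraries had the same directions. On days 6 and 9 the HIF shares went from 74.0% to 68.2% and from 59.6% to 48.3% in SW620. In SW620-TET2CD they went from 71.5% to 65.1% and from 63.9% to 57.6%. Those for ribosome biogenesis went from 53.8% to 83.2% and from 45.1% to 61.5% in SW620. In SW620-TET2CD they went from 54.3% to 76.7% and from 46.8% to 74.9%. Dividing cells were still present in the highest HIF quartile of each library, with 35, 48, 89 and 27 cells. In the late libraries the shares of the end quartiles for invasion genes were 8.50% and 3.89%, 7.74% and 5.04%, 16% and 12.4%, and 7.60% and 3.70%. For CDK inhibitors and antiproliferative genes they were 6.45% and 4.81%, 7.44% and 6.57%, 18.0% and 11.9%, and 8.97% and 5.14%. For epithelial genes they were 7.68% and 3.79%, 8.09% and 5.45%, 18.5% and 9.08%, and 10% and 4.32%. For late proteases, with a mean of 0 UMIs in quartiles 1 and 2 of each late library, they were 6.55% and 3.68%, 7.68% and 5.28%, 20.1% and 9.49%, and 7.88% and 5.41%. For glycolysis they were 3.07% and 7.37%, 4.51% and 10.3%, 14.4% and 14.4%, and 5.75% and 7.19%. Middle quartiles did not always lie between the end ones: for invasion genes in SW620-TET2CD on day 12 they were at 17.0% and 17.2%. Intervals of the end quartiles overlapped in some libraries for these further lists, as for CDK inhibitors in both late SW620 libraries. Since the rule split the cells, these shares have no test. The depth of the cells, higher in the dividing ones, was not tested as a part of it.

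**Figure D5:**
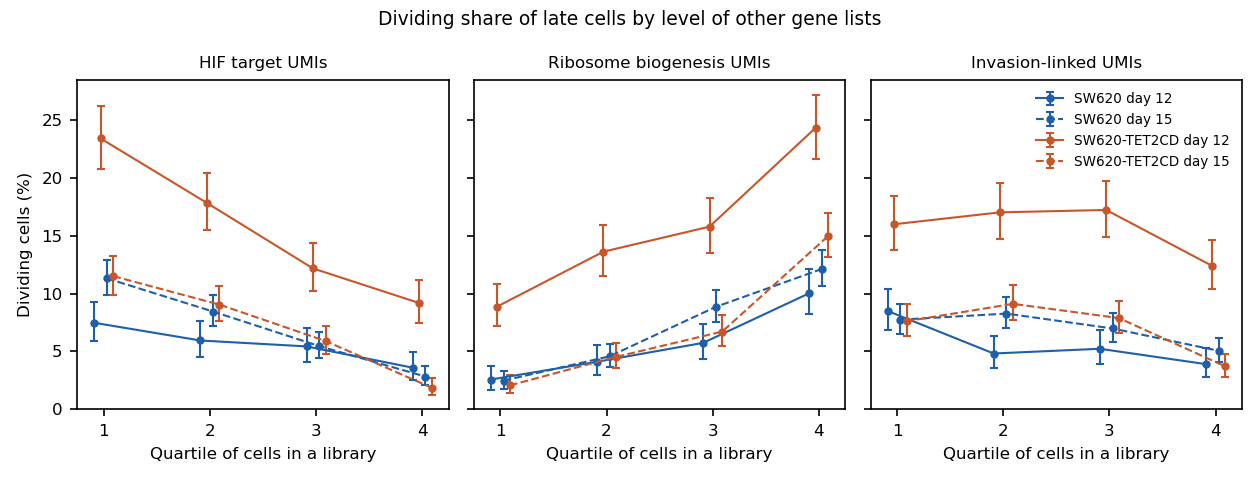
Percent of late cells called dividing (vertical axis) by quartile of the UMIs of 3 gene lists in cells thinned to 2000 UMIs (horizontal axis), 1 line per library, with exact 95% intervals. The share falls with HIF target UMIs and rises with ribosome biogenesis UMIs in each of the 4 late libraries.

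SW620-TET2CD and SW620 were compared in late dividing cells with days 12 and 15 as the samples of each line. Of 15362 genes 7 passed (0.0456%), all higher in SW620-TET2CD, with 1138 at an unadjusted p under 0.05, by the same edgeR test in a model with a mean for each line and period. TET2 itself was at 1.56 and 1.67 CPM in SW620 and 37.1 and 48.7 CPM in SW620-TET2CD (log2 fold change 4.57 ± 0.39 (SE), adjusted p = 7.2e-04), the construct included. CASC15, a long non-coding RNA, was at 5.62 and 7.23 CPM against 55.8 and 98.4 CPM (3.39 ± 0.31 (SE), adjusted p = 0.0011), and SBSPON, a secreted matrix protein, at 0.624 and 0.556 CPM against 17.5 and 21.3 CPM (4.90 ± 0.34 (SE), adjusted p = 1.5e-04). SOX5 was at 3.75 and 2.78 CPM against 12.7 and 15.1 CPM (1.99 ± 0.27 (SE), adjusted p = 0.024). DKK4, an antagonist of WNT signalling, and RAB34 had no UMI in the late dividing cells of SW620, where 3 UMIs would make 0.937 CPM on day 12 and 0.556 CPM on day 15, and were at 8.28 and 22.1 CPM and at 9.98 and 15.9 CPM in SW620-TET2CD. GPAT2 was at 0 and 0.185 CPM against 5.11 and 7.04 CPM. In the early dividing cells, too, each of the 7 genes was higher in both SW620-TET2CD libraries than in either SW620 library. The same held for all 7 in the other cells of the late libraries. There CASC15 was at 3.72 and 4.19 CPM in SW620 against 59.2 and 84.8 CPM in SW620-TET2CD. SBSPON was at 1.16 and 0.611 CPM against 13.4 and 9.50 CPM. No gene of the mitosis, replication, HIF or invasion lists was among the 7, which does not show that the lines were alike. PLAUR, at 11.9 and 49.3 CPM in SW620 and 7.03 and 14.3 CPM in SW620-TET2CD, had a log2 difference of −1.78 ± 0.53 (SE), adjusted p = 0.46, and CDKN1A one of −1.73 ± 0.40 (SE), adjusted p = 0.32. In this fit the difference between days 12 and 15 counts as spread. With the day as a block, a fit chosen after seeing the data, 293 genes passed (1.91%), 107 higher in SW620-TET2CD (0.697%) and 186 lower (1.21%), all 7 genes among them. PLAUR was then at −1.58 ± 0.24 (SE, adjusted p = 4.6e-04 by edgeR) and CDKN1A at −1.65 ± 0.34 (adjusted p = 0.0099). In that fit 7 of 19 invasion genes and 4 of 12 CDK inhibitors and antiproliferative genes were lower in SW620-TET2CD and none higher. Of the 31 mitotic and 27 replication genes none passed. Without the block the count rested on few libraries: it was 3 without SW620 on day 15, 11 without any 1 of the 4 early libraries, and 0 after thinning, where edgeR gave 642 genes at an unadjusted p under 0.05. DESeq2 called 40 genes, 27 higher in SW620-TET2CD and 13 lower, all 7 among them.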

How the data were processed

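Single-cell RNA was measured in 8 libraries, 1 for each line and day. The deposited values are UMI counts per gene and cell, which the authors made with Cell Ranger 4.0 against GRCh38. Bulk RNA and other assays of the series were not used here. Kept cells were chosen by the limits given above, which follow the study's methods, and UMIs were summed over the dividing and over the other cells of each library. The members and all gene lists were chosen with earlier results of these data known.

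Sums were tested with edgeR 4.0.16 (quasi-likelihood test, TMM factors, filterByExpr, Benjamini-Hochberg adjustment over all tested genes, threshold 0.05) in R 4.3.3. The late against early fit had the line as a block, the difference of changes had the library as a block, and the comparison of lines used group means with the 2 late days as samples (with the day as a block in an alternative). The 6 genes of the rule were left out of all counts. Genes outside the lists were named as the 10 largest rises and falls past the threshold with at least 20 CPM and, for late against early, no overlap within either line (the same sign in both lines for the difference, on both days for the lines). For dividing against other cells they were the 10 highest and lowest median log2 ratios with a pseudocount of 1 CPM. Without overlap within either line, 24.2% of all tested genes were higher and 19.3% lower in late dividing cells. The late sums of dividing cells are shallower than the early ones, so low genes are less precise there. The 3′ reads keep their strand. Single genes outside this rule named in the line comparison were chosen after their values were seen, since 5 of its 7 genes fell below that level. Alternatives were other marker limits, filters, factors, DESeq2 1.42.0, thinning and leaving out each library. The scripts were tested on simulated data. Values of some single list genes are not reported here.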

Additional observations from a re-analysis of the deposited data

Results flagged for a closer look

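The change over time differed between dividing and other cells in 2347 genes by the test of the difference itself (edgeR, adjusted p under 0.05). That test compares classes that the rule split. The largest log2 differences at 20 CPM or more were those of PIMREG (4.30), NEK2 (4.29), SPC25 (4.22), PBK (4.13), DLGAP5 (4.13), KIF2C (4.07), CDC20 (3.98), GTSE1 (3.83), NUF2 (3.82) and TROAP (3.77), all genes of mitosis or late in the cycle. The rule split the cells of each library on markers of this class, so these 10 values are a description of that split. In the other direction stood DIO3OS (−1.01) and its neighbour DIO3 (−1.0), an enzyme that inactivates thyroid hormone, then HIST1H2AC (−0.92), the sterol enzyme MSMO1 (−0.91), EGLN3 (−0.80), GPI (−0.80), LUC7L (−0.80), SDCBP2 (−0.76), NT5C3A (−0.74) and WSB1 (−0.74). DIO3 was at 43.3, 42.5, 9.99 and 1.85 CPM in SW620 and 32.0, 37.9, 18.6 and 3.72 CPM in SW620-TET2CD in dividing cells and at 52.9, 44.4, 31.3 and 6.09 CPM in SW620 and 37.5, 36.3, 29.1 and 11.8 CPM in SW620-TET2CD in the other cells, each given in the order of the days. HIST1H2AC was at 37.2 and 21.1 CPM in SW620 and 30.5 and 34.8 CPM in SW620-TET2CD in late dividing cells against 52.6 and 58.0 CPM in SW620 and 53.9 and 61.4 CPM in SW620-TET2CD in the other late cells.

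Barcodes above the upper limits on genes and UMIs, left out except in the alternative without upper limits, were rich in dividing cells. On day 12 at least 3 of the 6 markers were found in 45.0% of them in SW620 and in 70.4% in SW620-TET2CD, and on day 15 in 51.9% and 59.0%.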

How the results depend on the processing

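The fall in the dividing share kept its direction under each alternative run. Thinning each cell to 2000 UMIs moved the late against early count from 5471 to 2299 genes and the difference of changes from 2347 to 1139, which without a filter on low counts became 4188 (898 higher and 3290 lower). The 7 genes of the line comparison became 13 with at least 2 markers, 46 without upper limits, 4 without the 8% of cells with most UMIs, 0 after thinning, 40 with DESeq2 and 221 without a filter, 4 with all 6 markers, and 293 (107 higher and 186 lower) with the day as a block, both settings chosen after seeing the data. After thinning edgeR gave 642 genes at an unadjusted p under 0.05. The mean late minus early dividing share, −55.4 percentage points, was −61.8 with at least 2 markers, −45.8 with at least 4, −19.5 with all 6 and −19.7 after thinning. CDC20 in late against early dividing cells, not called, turned from −0.02 to 0.49 on the log2 scale after thinning. The cause of these shifts was not tested.

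Leaving out 1 library gave 3802 to 6126 genes for late against early, 1594 to 2594 for the difference of changes, 3 to 11 for the lines and 448 to 493 for dividing against other cells, against 436. Among genes named for late against early, LDHB, HJURP, PLK1, KIF14, LGR5, ZEB1, APCDD1, ASCL2, CENPE, LIN37 and RBL1 lost the call without at least 1 library, as did PLAU, SHMT2 and PSPH for the difference and SOX5 for the lines. After thinning FOXM1, E2F1 and CDC6 were among those that lost it, and PHGDH, DDIT4 and NDUFA4L2 for the difference. Where a late group kept 1 library, the lone library was assumed to vary like the others. With upper-quartile factors the late against early split was 3382 higher and 2078 lower, and without a filter 2678 and 3426. With 1 library for each line and day, replicate numbers pair no samples, so the pairing came from the line, the library and, after seeing the data, the day. Depth limits low genes in the 221 dividing cells of SW620 on day 12.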
